A study of Homo sapiens with 8 samples.

Results

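The genes described here are those that the authors listed as different between wild-type K-562 cells expressing a FLAG-TASOR2 transgene and wild-type K-562 controls. All 884 genes of that deposited comparison were taken, out of 1221 genes listed in at least one of the 3 comparisons of the series. K-562 is an established human leukaemia line that can express erythroid, megakaryocytic and myeloid genes. The comparison rests on total RNA libraries, made after removal of ribosomal RNA, 2 from FLAG-TASOR2 cells and 2 from controls, 4 of the 8 libraries of the series. The controls are labelled parental wild type with a negative sgRNA, and the FLAG-TASOR2 cells parental wild type with no guide named. Per the labels' protocols, cells received a lentivirus carrying either an empty puromycin resistance vector or a FLAG-tagged transgene. The protocols also describe sorting of single cells into clonal populations after CRISPR/Cas9 transfection, without saying which of these 4 libraries came from a clone. Clone, guide and transgene can therefore not be told apart in this comparison. Values per library were not analysed here, since each gene has 1 fold change, 1 mean expression and 1 test result, so the depth per library is unknown and overlap between libraries cannot be stated.

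TASOR2 is a paralog of TASOR, the scaffold subunit of the human silencing hub (HUSH). HUSH joins TASOR with periphilin and the chromodomain protein MPP8, brings in the H3K9 methyltransferase SETDB1 and the ATPase MORC2, and represses LINE-1 retrotransposons, newly integrated DNA and some genes. Targets of H3K9 methylation in many cells include clustered zinc finger and protocadherin genes.

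All values below are from the authors' deposited table, and a positive log2 fold change means a higher level in FLAG-TASOR2 cells. An approximate standard error, derived from the deposited F score, stands in parentheses after the fold change. The authors tested 14001 genes, and a gene entered the list when its unadjusted p was below 0.05, its log2 fold change was beyond 1 in either direction and its log2 mean expression exceeded 1. Of the tested genes, 6.31% were listed, 2.56% as higher (358 genes) and 3.76% as lower (526 genes). A share of 40.5% of listed genes was thus higher and 59.5% lower, which is the base for every count below. Listed higher genes had a median log2 fold change of 1.83 and lower genes one of -1.85. Only 0.0357% of tested genes (5) had an adjusted p below 0.05 in the authors' deposited table, and only those are said to have risen or fallen. Over the list, the authors' adjusted p ran up to 0.408, and many genes named below have a high one. If no gene differed, about 700 of the 14001 tested genes would have an unadjusted p below 0.05. By the deposited values, about 1711 had one up to the largest listed. Genes absent from the list have no value and cannot be called unchanged, and every listed gene had to differ to be listed.

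**Figure D1:**
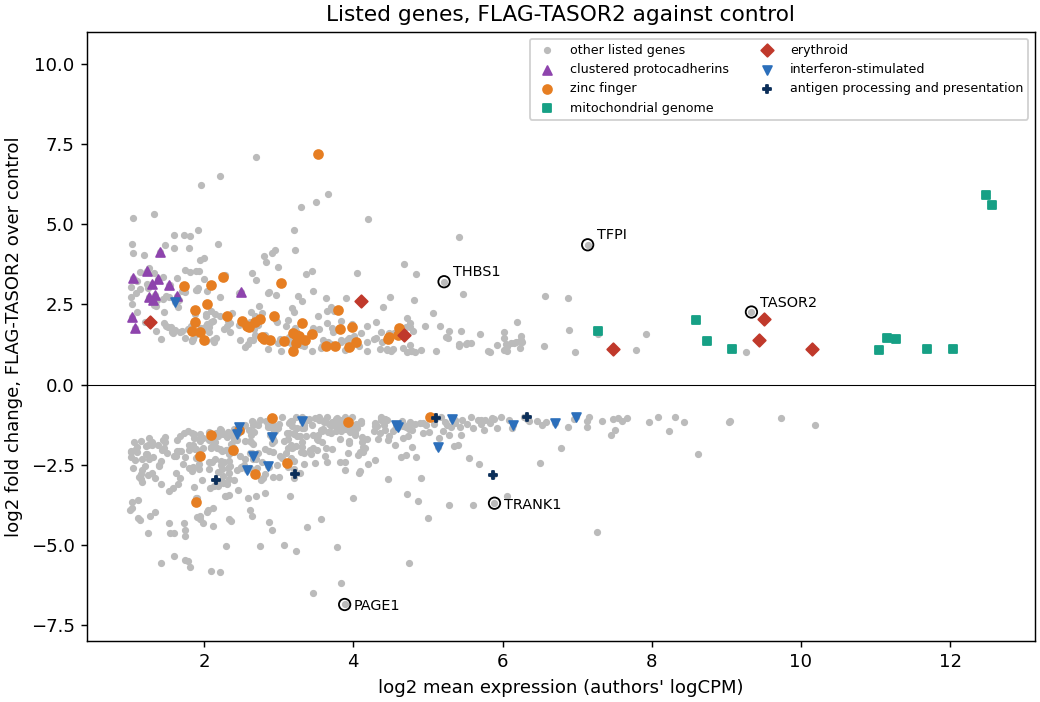
Log2 fold change (vertical) against log2 mean expression (horizontal) for the 870 listed genes without a group at 0; each point is 1 gene, coloured shapes mark gene lists and open circles mark named genes. Protocadherins (upward triangles) sit at a log2 mean expression of at most 2.50 and mitochondrial genes (squares) at the right, all above 0, while the interferon-stimulated and antigen processing genes lie below 0 with 1 exception.

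The targeted gene came first. TASOR2, on chromosome 10 at 5684838 to 5763740, was listed as higher by 2.26 (0.27), or 4.80-fold, with an adjusted p of 0.125 in the authors' deposited table. Its log2 mean expression of 9.34 put it among the 15 most highly expressed listed genes. Reads of the transgene and of the endogenous gene are not separated in this value. Among 32 annotated genes of the HUSH and H3K9 silencing list, which holds TASOR, MPHOSPH8, PPHLN1, MORC2, SETDB1 and TRIM28, TASOR2 was the only one listed. Of 183 other chromatin regulators in a fixed list, 1 was listed by the authors, PRDM11 at -1.78 (0.68). That list does not hold every such gene. The methyltransferase gene SMYD3, outside it, was listed as lower at -1.58 (0.21).

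Of the 5 genes past the adjusted threshold, 2 rose (0.0143% of tested genes) and 3 fell (0.0214%). TFPI, which restrains the start of blood coagulation by tissue factor, rose by 4.36 (0.19, adjusted p 0.00684), a 20.6-fold difference in the authors' deposited table. It was also listed as higher in both other comparisons with these controls, at 4.86 (0.19) in the knockout and 1.70 (0.32) with FLAG-TASOR. THBS1, which encodes thrombospondin-1, a matrix glycoprotein also held in platelet granules, rose by 3.21 (0.24, adjusted p 0.0353). With FLAG-TASOR, THBS1 was listed at 1.91 (0.69), and in the knockout it was not listed. PAGE1, a cancer-testis gene of the X chromosome, fell to a log2 fold change of -6.87 (0.48) and TRANK1 to one of -3.71 (0.28), each with an adjusted p of 0.0353 in the authors' deposited table. EIF3CL, a copy of the translation initiation factor gene EIF3C, fell with an adjusted p of 0.0353. Its residual degrees of freedom point to a group with all counts at 0, so no fold is given, and how reads were divided between it and EIF3C is not stated. At an adjusted p below 0.1 there were also the helicase gene DDX53 at 5.55 (0.48) and PLXDC2 at 4.83 (0.46) as higher, and TAP2 at -2.82 (0.26) as lower, in the authors' deposited table.

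The next genes were taken by fold change from the more highly expressed part of the list. Leaving out genes with a group at 0, ZNF534 had the highest log2 fold change, 7.21 (0.82), and near the top stood the mitochondrial ribosomal RNAs, the non-coding RNA LINC01193 at 5.70 (0.82) and DDX53, in the authors' deposited table. The estrogen receptor gene ESR1 was at 3.44 (1.08), the formin gene FMN1 at 3.44 (1.04) and the guanine exchange factor gene SPATA13 at 3.49 (0.92). On the lower side stood PAGE1, its relative PAGE2B at -6.51 (0.69), TRIM67 at -6.21 (0.89), the potassium-chloride cotransporter gene SLC12A7 at -5.57 (0.63) and LINGO1 at -5.20 (1.24) in the authors' deposited table. The phosphatase gene CTDSPL followed at -5.06 (0.55) and the tetraspanin gene TSPAN18 at -5.01 (0.62). Outside this expression range, the sodium channel gene SCN2A was listed as 7.12 higher (0.81) in the authors' deposited table.

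The interferon response stood almost entirely on the lower side, with 14 lower and 1 higher of 80 annotated genes. The 15 listed members had a median of -1.32 and none had an adjusted p below 0.05 (smallest 0.125). PARP12, an antiviral ADP-ribosyltransferase, was at -1.94 (0.26) and TRIM25, a ubiquitin ligase of the RIG-I pathway, at -1.20 (0.21) in the authors' deposited table. BST2, which tethers budding viruses, was at -1.26 (0.21), and the ubiquitin-like modifier ISG15 at -1.34 (0.50). Its conjugating enzyme UBE2L6 was at -2.53 (0.55), and LGALS3BP, a secreted glycoprotein, at -2.66 (0.49) in the authors' deposited table. OAS3, which makes the 2-5A activator of RNase L, was at -2.23 (0.48), and the RNA-activated kinase gene EIF2AK2 at -1.07 (0.25). DDX60, a helicase of the same response, was the exception at 2.57 (0.77, adjusted p 0.282), so the direction was not shared by all members.

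The antigen processing list gave 5 lower and 0 higher of 41 annotated genes, with a median of -2.81. Its members act in sequence on peptides for MHC class I. The immunoproteasome subunit PSMB9 was 7.97-fold lower, the aminopeptidase ERAP1 at -1.06 (0.21), and the peptide transporter chains TAP1 and TAP2 at -2.81 (0.56) and -2.82 (0.26) in the authors' deposited table. Tapasin, encoded by TAPBP, was at -1.01 (0.21). No MHC class I heavy chain gene and no beta-2-microglobulin gene was listed. Of the 5, TAP2, PSMB9, TAP1 and TAPBP lie together with AIF1 at -4.13 (0.93) and C4B at -3.18 (0.94) in a stretch of chromosome 6. It runs from 31615184 to 33314387 and holds 92 annotated protein-coding genes. The stretch was bounded as neighbouring listed genes of the same direction, so all 6 being lower follows from that choice.

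Promoter sequences of these 2 lists are shown because nearly all listed members had the same direction. RefSeq windows of 300 bases (GRCh38.p14) were matched for 19 of the listed members, and 13 of them hold, on either strand, a pair of GAAA separated by any 2 bases, a core of the interferon-stimulated response element. The share among all genes of the table was 4.38%, and it was 6.60% among lower and 5.83% among higher listed genes with a window. Members of the 2 lists that the authors did not list were not examined, so these shares cannot relate the motif to direction. DDX60, listed as higher, also holds it, while PSMB9, TRIM25, UBE2L6, HELZ2, SAMHD1 and RNF213, all lower, do not. The longer form, with 3 GAAA separated in the same way, contains the shorter one. It occurs in 0.187% of all genes and in 4 of the 19, printed here 5′ to 3′ along the gene with the longer form in capitals. In TAP1 the capitals are its reverse complement. A match is a description of these letters only.
BST2, chr19:17405581-17405880, minus strand: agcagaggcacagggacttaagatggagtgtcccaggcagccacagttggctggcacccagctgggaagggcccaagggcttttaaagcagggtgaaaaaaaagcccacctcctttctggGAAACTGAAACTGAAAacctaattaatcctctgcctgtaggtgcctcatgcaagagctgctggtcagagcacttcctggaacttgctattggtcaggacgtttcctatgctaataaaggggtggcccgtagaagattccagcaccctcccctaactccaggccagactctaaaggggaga
ISG15, chr1:1013247-1013546, plus strand: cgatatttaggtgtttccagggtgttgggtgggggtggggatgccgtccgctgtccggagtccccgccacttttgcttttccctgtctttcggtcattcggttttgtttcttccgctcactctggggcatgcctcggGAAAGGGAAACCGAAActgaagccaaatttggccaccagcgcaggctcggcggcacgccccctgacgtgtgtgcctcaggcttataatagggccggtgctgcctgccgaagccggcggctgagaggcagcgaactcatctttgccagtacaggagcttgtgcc
TAP1, chr6:32853655-32853954, minus strand: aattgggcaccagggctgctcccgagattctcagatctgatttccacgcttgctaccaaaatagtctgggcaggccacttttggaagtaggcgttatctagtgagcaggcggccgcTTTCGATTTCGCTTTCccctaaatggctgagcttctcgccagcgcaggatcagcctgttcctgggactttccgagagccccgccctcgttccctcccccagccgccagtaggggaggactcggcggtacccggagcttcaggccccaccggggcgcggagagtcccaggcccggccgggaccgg
TAPBP, chr6:33314029-33314328, minus strand: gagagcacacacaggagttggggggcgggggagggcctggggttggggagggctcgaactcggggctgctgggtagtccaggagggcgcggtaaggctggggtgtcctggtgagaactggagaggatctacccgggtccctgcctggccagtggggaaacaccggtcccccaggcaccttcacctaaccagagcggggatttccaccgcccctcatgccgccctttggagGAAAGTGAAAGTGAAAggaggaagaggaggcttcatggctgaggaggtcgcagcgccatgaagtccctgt

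Lineage genes differed in direction. All 7 listed erythroid genes, of 52 annotated, were higher, with a median of 1.55 and no adjusted p below 0.05. The band 3 anion exchanger gene SLC4A1 was at 2.62 (0.31), the alpha-globin genes HBA2 and HBA1 at 2.04 (0.30) and 1.12 (0.20), and embryonic zeta-globin HBZ at 1.38 (0.44) in the authors' deposited table. Adult beta-globin HBB was at 1.94 (0.70), the membrane skeleton gene DMTN at 1.55 (0.30) and the nuclear erythroid gene HEMGN at 1.11 (0.24). The nearly identical coding sequences of HBA1 and HBA2 make their separate values uncertain. HBE1, HBG1 and HBG2, which K-562 cells are known to express, were not listed. Of 34 megakaryocyte and platelet genes, THBS1, TUBB1 at 1.77 (0.25) and GP1BB at 1.59 (0.26) were higher, and the prostaglandin synthase gene PTGS1 was lower at -2.09 (0.36) in the authors' deposited table.

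Of 42 annotated myeloid genes, 5 were lower and 1 higher. The eosinophil genes PRG2 at -2.70 (0.43), CLC at -4.33 (0.96) and EPX at -2.55 (0.71) were on the lower side in the authors' deposited table. The integrin gene ITGAM was at -4.62 (0.78) and CSF2RB, the shared receptor chain for interleukins and GM-CSF, at -3.50 (0.72). MS4A3, a gene of granulocyte precursors, was higher at 2.24 (0.41), although it was listed as lower in both other comparisons with these controls, at -1.96 (0.42) in the knockout and -2.40 (0.48) with FLAG-TASOR, in the authors' deposited tables. ITGAM and CLC were lower in all 3, with ITGAM at -2.44 (0.91) and -2.39 (0.70). The 3 comparisons share their control libraries. Of 36 lymphoid genes only the recombinase gene RAG1 was listed, at 1.36 (0.42). Fibroblast and epithelial markers gave 1 lower gene of 24 annotated, KRT19 at -3.75 (0.60). Neuronal markers gave 3 lower genes of 25, ENO2 at -2.14 (0.38), SYP at -2.68 (0.61) and SCG3 at -1.82 (0.70), in the authors' deposited table.

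**Figure D2:**
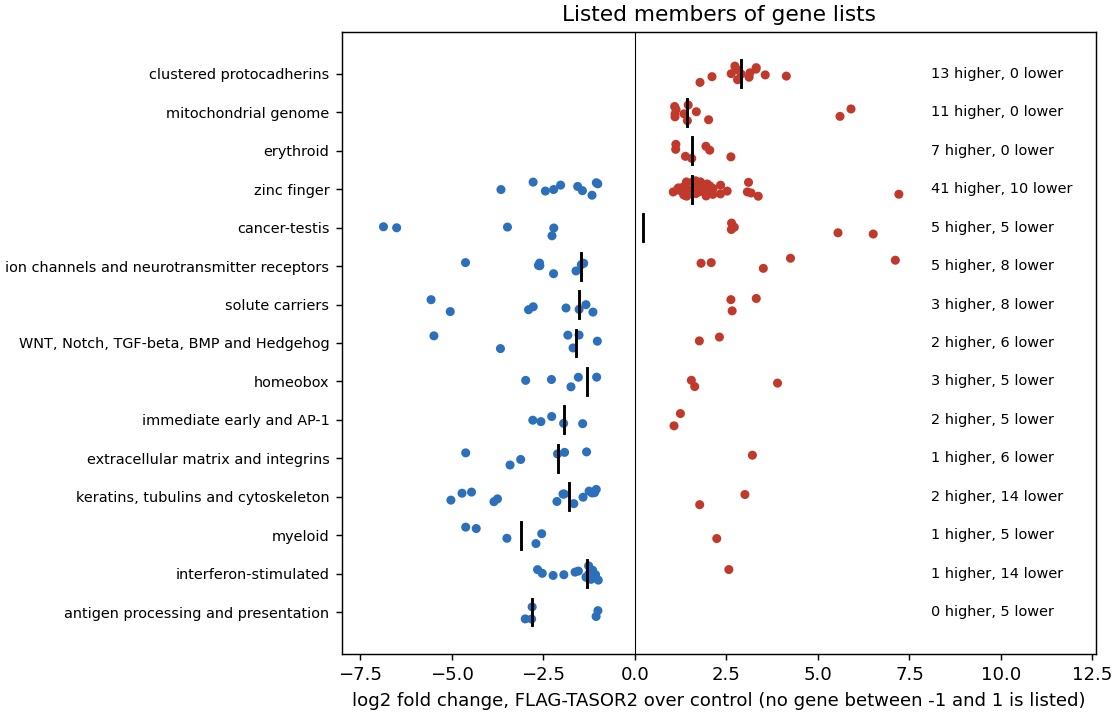
Log2 fold change (horizontal) of every listed member without a group at 0 in 15 gene lists; each point is 1 gene, black bars mark the median, and counts of higher (red) and lower (blue) members stand at the right. Protocadherin, mitochondrial and erythroid members all lie above 0, antigen processing members all below, and cancer-testis members split 5 and 5.

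Few matrix genes were listed, and most of those were lower. Of 172 annotated genes of the matrix and integrin list, 4.07% were listed, a share not above the 6.31% of all tested genes. These were 6 lower members and THBS1 as the single higher one, with fibronectin FN1 at -3.41 (0.82), the collagen gene COL15A1 at -2.11 (0.45), SPARC at -1.32 (0.28) and integrin ITGB7 at -3.12 (0.61) in the authors' deposited table. Of 245 annotated cytoskeletal genes, 14 were lower and 2 higher, with a median of -1.80. The listed share of 6.53% was near that of all tested genes. The filamin gene FLNA was at -1.06 (0.24), the haematopoietic myosin gene MYO1F at -4.46 (0.58) and vimentin VIM at -1.17 (0.35), against TUBB1 and MYO10 at 3.01 (0.78) as higher, in the authors' deposited table.

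In the WNT, Notch and TGF-beta list, receptors went both ways. The receptors NOTCH2 and NOTCH3 were higher at 1.76 (0.64) and 2.31 (0.64), and HES1, a transcriptional target of Notch, was lower at -1.69 (0.35), in the authors' deposited table. The listed WNT ligands and receptors were lower, with WNT5B at -5.49 (1.10), WNT3 at -1.83 (0.65), FZD2 at -3.67 (1.03) and FZD7 at -1.53 (0.61). The list held 6 lower and 2 higher of 136 annotated genes, a share of 5.88%, near the 6.31% of all tested genes. Of 50 immediate early genes, 5 were lower and 2 higher. The AP-1 subunits differed, FOS at -2.27 (0.70) and FOSL2 at -2.57 (0.51) against FOSL1 at 1.07 (0.32), in the authors' deposited table. In the axon guidance list, ROBO1 at 1.99 (0.38), CNTNAP4 at 4.66 (1.01) and CNTNAP3B at 1.44 (0.52) were higher, and UNC5B at -1.97 (0.30) and PLXNA2 at -3.30 (1.02) lower. Of its 122 annotated genes, 4.10% were listed, a share not above that of all tested genes. Ion channel and receptor genes gave 5 higher, among them the GABA-A subunit gene GABRG1 at 3.51 (1.05), and 8 lower, among them GABRE at -1.46 (0.54) and the irritant receptor TRPA1 at -4.63 (0.94), in the authors' deposited table. Of the 346 annotated genes of that list, 3.76% were listed, also not above that of all tested genes.

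Cell cycle, ribosomal protein and nuclear respiratory chain genes were nearly absent from the list. No gene of the 49 in the cell cycle list was listed (0), against 6.31% of all tested genes. Of 88 ribosomal protein genes, RPL27A was listed at 1.01 (0.22), and of 111 nuclear respiratory chain genes 3 were, all higher, NDUFS6 at 1.05 (0.23), SMIM4 at 1.43 (0.41) and UQCRHL at 1.11 (0.43), in the authors' deposited table. The heat shock list gave 5 lower and 0 higher of 76 annotated genes, a share of 6.58%, near that of all tested genes. Its member of lowest p, HSF1 at -1.17 (0.15), lies in the chromosome 8 stretch described below. The 4 listed replication-dependent histone genes, 5.63% of 71 annotated and also near that share, were lower, between -1.28 and -1.07.

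Metabolic, transport and stress lists held from 2 to 11 listed genes each. The 3 listed genes of cholesterol and fatty acid synthesis, 6.52% of 46 annotated against 6.31% of all tested genes, were all lower. Among them were the acetyl-CoA synthetase ACSS2 at -1.27 (0.31) and the carboxylase ACACB at -1.79 (0.45), in the authors' deposited table. Of 384 solute carrier genes, 8 were lower and 3 higher, among them the fatty acid transporter gene SLC27A6 at -5.04 (1.14) as lower and SLC36A2 at 3.32 (1.07) as higher, in the authors' deposited table. The listed share of solute carriers was 2.86%, not above that of all tested genes. The homeobox and forkhead list gave 5 lower and 3 higher of 229, a share of 3.49% and also not above that of all tested genes. HOXD4 at 3.90 (1.03) and FOXO1 at 1.54 (0.61) stood on the higher side and DLX1 at -1.75 (0.58) on the lower. In the coagulation list, with 7.89% of 38 annotated genes listed, the plasminogen activator gene PLAT, at -2.06 (0.71), and F8 were lower beside TFPI. The 6 listed cytokine and receptor genes, 3.14% of 191 annotated, were divided evenly. The ligands IL6 at 1.66 (0.61), IL16 at 1.12 (0.29) and IL18 at 1.66 (0.54) were higher and the receptors TNFRSF1A at -1.36 (0.37), IL4R at -1.26 (0.46) and IL13RA1 at -1.29 (0.47) lower, in the authors' deposited table. The p53 target list and the unfolded protein list each gave 2 lower genes and 0 higher, 7.14% of 28 and 4.55% of 44 annotated genes.

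The RNA class of a gene went with its direction. Of 723 listed protein-coding genes, 32.9% were higher, against 78.5% of 130 annotated genes of other classes. The classes were alike in this, with 41 of 53 lincRNAs, 18 of 23 antisense genes and 12 of 17 pseudogenes higher. Whether counting used strand is not stated in those sources, so reads of an antisense gene and its partner may not be told apart. Listed as higher among lincRNAs were MIR99AHG at 4.21 (0.88), LINC01033 at 1.67 (0.23) and LINC01748 at 4.28 (0.68) in the authors' deposited table. The lower long non-coding RNAs included genes of the X inactivation centre and other X-linked RNAs. XIST, which coats the inactive X chromosome, was at -4.62 (0.59), its activator FTX at -1.06 (0.28), XACT at -1.56 (0.51) and the chromatin-associated FIRRE at -1.30 (0.41) in the authors' deposited table. TSIX, which overlaps XIST on the other strand, was also lower with a group at 0, and no fold is given. In K-562 these are group values of a cell line with a rearranged genome.

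**Figure D3:**
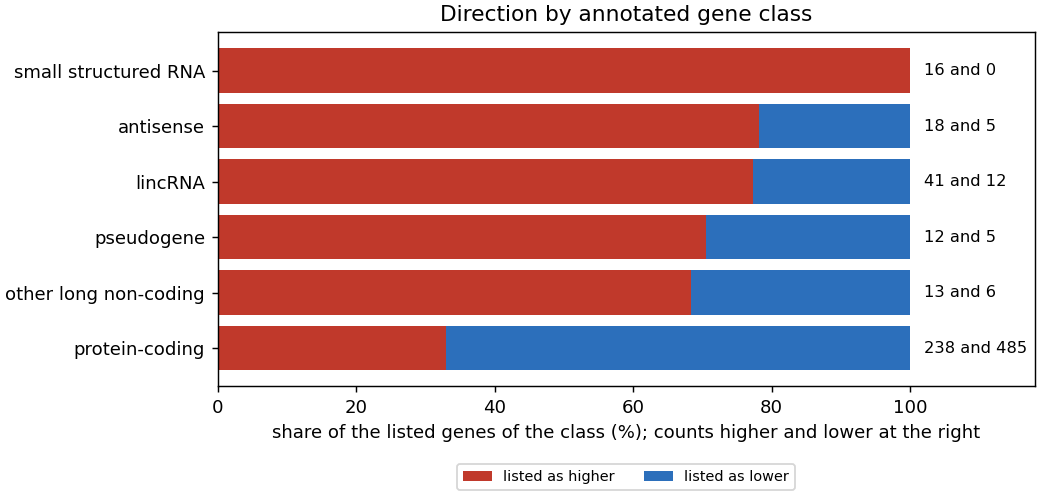
Share of listed genes of each annotated class (horizontal, in %) that was higher (red) or lower (blue), with the counts at the right. Protein-coding genes are 32.9% higher, and the 5 other classes range from 68.4% to 100%.

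All 16 listed small structured RNAs were higher. They comprise U1, U5 and U12 spliceosomal RNAs, the Y RNAs RNY1 at 3.02 (0.87) and RNY3 at 1.78 (0.61), and a 5.8S ribosomal RNA gene with a group at 0, for which no fold is given. The U1 genes are shown because most are 1 sequence: 8 of them, on chromosomes 1 and 14, have the same 164 bases as RNU1-1 in GENCODE 29, with log2 fold changes from 1.20 to 1.44 in the authors' deposited table. Their reads cannot be assigned to single genes, so the 8 values are not independent. RNVU1-28 at 1.47 (0.44) differs from RNU1-1 by G37T, counted from the 5′ end. The capitals mark bases 3 to 11, which pair with 5′ splice sites.
RNU1-1, chr1:16514122-16514285, minus strand: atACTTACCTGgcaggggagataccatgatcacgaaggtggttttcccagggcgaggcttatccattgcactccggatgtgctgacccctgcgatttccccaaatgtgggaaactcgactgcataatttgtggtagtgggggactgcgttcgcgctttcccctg
RNVU1-28, chr1:144560666-144560829, minus strand: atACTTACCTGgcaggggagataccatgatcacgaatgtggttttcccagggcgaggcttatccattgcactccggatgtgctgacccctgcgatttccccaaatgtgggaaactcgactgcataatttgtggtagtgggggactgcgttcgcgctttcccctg

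The mitochondrial genome contributed 11 listed genes of 37 annotated, all higher. The ribosomal RNAs MT-RNR1 and MT-RNR2 were at 5.90 (2.18) and 5.60 (1.98), with the 2 largest mean expressions of the list, and ribosomal RNA was depleted from these libraries. The 9 protein-coding genes ranged from 1.09 for MT-ND1 to 2.01 for MT-ND3 in the authors' deposited table. The nuclear pseudogene MTATP6P1, a copy of mitochondrial sequence on chromosome 1, was at 1.59 (0.44), beside MT-ATP6 at 1.43 (0.31). The part of rRNA depletion and library make-up in the higher small and mitochondrial RNAs was not tested.

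Higher and lower genes also differed in structure. The median exon number was 5 among higher and 10 among lower annotated genes, and 7 and 10 among protein-coding genes, where all annotated protein-coding genes have a median of 8. Single-exon genes made up 15.3% of higher genes (52) and 2.73% of lower genes (14). Among protein-coding genes these shares were 6.72% and 1.65%, against 4.91% of all annotated ones. The order of gene spans depended on the genes taken, with a median of 31.7 kb for higher and 35.2 kb for lower genes of all classes, but 44.0 kb and 35.4 kb among protein-coding genes.

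By locus, the gamma protocadherins gave the densest group. These adhesion proteins are made from variable first exons joined to shared constant exons. All 13 listed genes were higher, within 0.182 Mb of chromosome 5 (141330571 to 141512981) that holds 22 annotated protein-coding genes. The largest was PCDHGA5 at 4.14 (0.88) and the smallest PCDHGB5 at 1.78 (0.66), in the authors' deposited table. Subfamilies A and B were both present, with 8 and 5 listed genes, and no alpha or beta protocadherin was listed. The 13 genes overlap on the shared exons, where reads may not be told apart, so their values are not independent. In the knockout comparison, against the same controls, 17 clustered protocadherins were listed, all higher, with a median of 3.94. With FLAG-TASOR 0 were listed. Their mean expression was low, with all 13 below the median of the list (3.05) and PCDHGA8 alone, at 2.50 on the log2 scale, above 2.

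Of 669 annotated zinc finger genes, 41 were higher and 10 lower, with a median of 1.55 and no adjusted p below 0.05. The listed share of 7.62% was near the 6.31% of all tested genes. The KRAB zinc finger proteins recruit TRIM28 and SETDB1 to DNA, and many of their genes lie in arrays on chromosome 19. Many of the higher genes lay in 3 stretches there. The counts for these stretches include neighbours outside the list, among them the pseudogenes LETM1P2 and VN2R19P, non-coding RNAs and SYT5. Between 57466663 and 58599355 lay 21 higher genes. By p these were led by LETM1P2, ZNF772 at 2.34 (0.36), ZNF134 at 1.78 (0.30) and ZIK1 at 4.10 (0.75) in the authors' deposited table. Between 19900913 and 23100361, 10 were higher, among them ZNF257 at 1.47 (0.27), ZNF93 at 1.62 (0.38), a regulator of LINE-1 elements, and ZNF208 at 1.81 (0.43). Between 52388842 and 55180441, 9 were higher, led by ZNF534 and with ZNF528 at 3.17 (1.15) and its antisense RNA ZNF528-AS1 at 3.57 (0.64), in the authors' deposited table. Each stretch was ended by any listed gene of the other direction, so none of the 10 lower members could lie inside. These lower members include ZFP30 at -2.45 (0.47), ZNF358 at -3.66 (0.82), ZNF467 at -2.78 (0.66) and the X-linked ZFP92 at -2.03 (0.49). Chromosome 19 also held a stretch of 9 lower genes, from 6494319 to 12294887, among 174 annotated protein-coding genes. Bounded in the same way, it includes ZNF358, ZNF44 at -1.56 (0.53) and MYO1F. In the knockout comparison, against the same controls, the list held 21 higher and 3 lower zinc finger genes, and with FLAG-TASOR 5 and 1. ZNF257 had opposite signs, with -1.60 (0.43) listed for the knockout in the authors' deposited tables.

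On chromosome 15, a stretch bounded in the same way, from 20642799 to 26939539, held 8 higher genes with a median of 3.77. They include the imprinted genes NDN at 3.53 (0.98) and NPAP1 at 4.61 (0.76), LINC01193, the pseudogene NBEAP1 at 4.02 (0.77) and HERC2P2 at 1.19 (0.41), in the authors' deposited table. Other imprinted genes were split, with MEST higher at 1.93 (0.60) and DLK1 lower at -3.48 (0.83).

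The distal end of chromosome 8 held 18 lower genes between 142727203 and 144507174, 16 of them protein-coding among 71 annotated. Their log2 fold changes ran from -2.98 to -1.02 with a median of -1.22, and no value above -1 could be listed. Their median log2 mean expression was 7.41, against 3.05 for the whole list. The triglyceride synthesis gene DGAT1 was at -1.44 (0.15), the cleavage factor gene CPSF1 at -1.25 (0.16), the heat shock regulator HSF1 at -1.17 (0.15) and the riboflavin transporter gene SLC52A2 at -1.15 (0.17) in the authors' deposited table. The transcription factor genes FOXH1 at -2.98 (0.56) and SCRT1 at -2.94 (0.64) had the lowest values, on low expression and with larger errors.

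**Figure D4:**
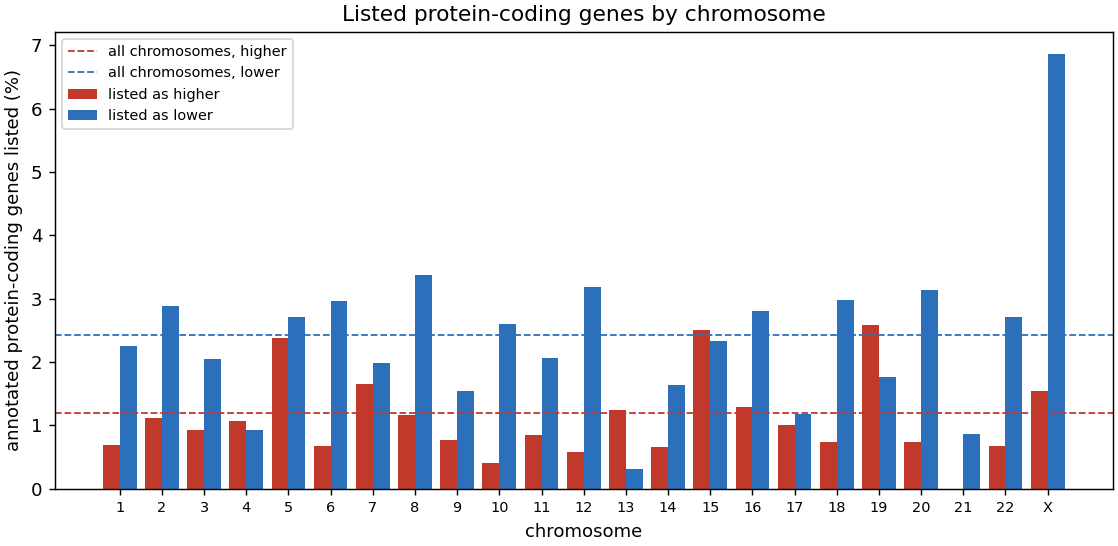
Share of annotated protein-coding genes (vertical, in %) listed as higher (red) or lower (blue) on each autosome and X, with dashed lines for all chromosomes together. Lower genes on X reach 6.86% against 2.43% for all, and higher genes on 19 reach 2.58% against 1.19%.

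The X chromosome held 67 lower and 13 higher genes. Of its 845 annotated protein-coding genes, 6.86% were listed as lower, against 2.43% over all chromosomes, the largest share of any chromosome. The distal long arm, from 149476990 to 155669944, held 20 of them among 116 annotated, in a stretch bounded so that it holds no higher listed gene. They include FLNA, the factor VIII gene F8 at -2.93 (0.81), the phosphatase gene DUSP9 at -4.27 (0.74) and BCAP31 at -1.06 (0.18), in the authors' deposited table. On the short arm, between 6533618 and 7927739, 4 of 5 annotated protein-coding genes were listed, all lower, a stretch chosen after its values were seen. VCX3A was at -5.52 (1.02), VCX at -4.20 (0.88) and PNPLA4 at -4.11 (0.84), and PUDP had a group at 0, in the authors' deposited table. VCX and VCX3A are near-identical copies, so their reads may be shared. PUDP was also listed as lower in the knockout, at -4.61 (1.05), and with FLAG-TASOR, at -3.71 (0.62), against the same controls. Higher X-linked genes included DDX53, KLHL13 at 3.36 (0.73), XAGE1A at 2.64 (0.72) and NXF2 at 2.72 (1.03), in the authors' deposited table. The cancer-testis list as a whole was split 5 and 5, with the germ granule genes TDRD6 at 6.51 (0.90) and TDRD5 at 2.64 (0.77) on the higher side and MAGEA9B at -2.22 (0.35) and CT47A12 at -3.48 (0.71) on the lower. Its listed share, 6.67% of 150 annotated genes, was near the 6.31% of all tested genes. Copy number of these stretches in each clone or culture was not tested.

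**Figure D5:**
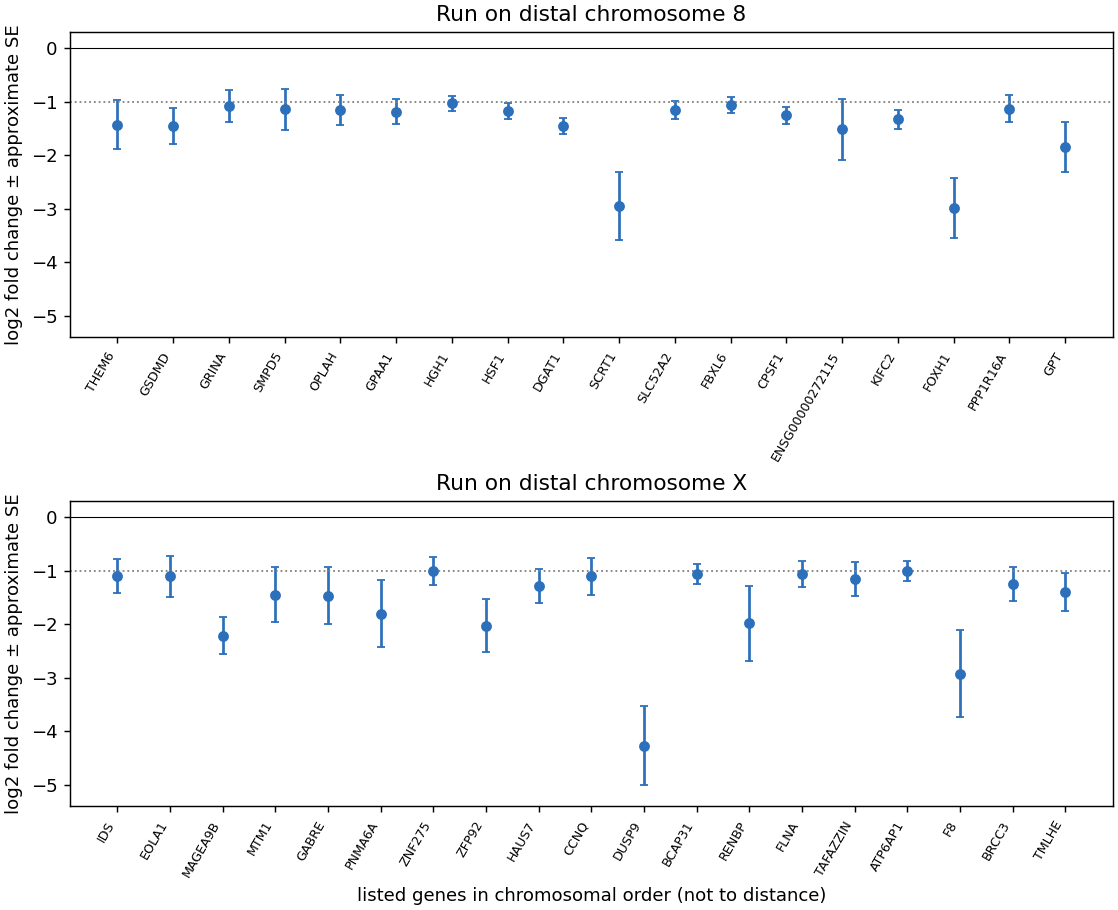
Log2 fold change (vertical) with approximate SE (bars) of the listed genes of the runs on distal chromosomes 8 and X in chromosomal order; each point is 1 gene the dotted line marks the listing threshold of -1, and 19 of the 20 X genes are drawn. Most chromosome 8 genes lie just below -1, with SCRT1 and FOXH1 near -3, and on X the lowest are DUSP9 and F8.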

How the data were processed

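Total RNA was depleted of ribosomal RNA and sequenced, per the labels' protocols. Salmon, edgeR, DESeq2, STAR 2.7.8 and the hg38 build appear in the submitters' processing notes, without roles. Per the file headers, the deposited tables give each gene's log2 fold change and logCPM, its F score, and its p-value before and after adjustment, under the column names edgeR uses. They list only part of the genes, as checked on the values, and hold no counts, so no model was refitted and no interval that needs depth is given. Replicates are called biological, without naming separate cultures, so each p-value reflects only the variation among these libraries.

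From the deposited values, the top gene's adjusted p over its raw p gave the number of tested genes, and each fold change on the log2 scale over the root of F gave the approximate SE. Total degrees of freedom were 6.01. Genes lower by 1 (14) were taken to have a group with all counts at 0, as a quasi-likelihood fit would treat them. Recovery of the number of tested genes and of the degrees of freedom was checked on simulated F scores with set degrees of freedom. No counts were simulated, and the approximate SE was not checked. Positions, exons and classes came from GENCODE 29 (GRCh38), matched by identifier for 853 of 884 genes. Promoter windows, from 250 bases before to 50 after a start, came from RefSeq (GRCh38.p14) and were matched for 585. A run means 8 or more adjacent listed genes in the same direction, none over 2 Mb from the next. Lists were matched by symbol, and their annotated members need not have been tested. Named genes were those past the adjusted threshold, the extremes by fold among genes of at least median expression, those of lowest p and highest expression, and members of lists, classes and runs by p. The members and lists were chosen with earlier results of these data known, so lists are described without tests. Some listed genes are counted but not named or reported here. Python 3.11.15, pandas 2.3.3 and scipy 1.17.1 were used.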

Additional observations from a re-analysis of the deposited data

How the results depend on the processing

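No paired analysis was possible because the deposited tables hold no values per library, and for the same reason no replicate could be left out. Stricter thresholds shortened the list by construction. With an absolute log2 fold change above 2 it held 152 higher and 230 lower genes, with an unadjusted p below 0.01 144 and 243, and with mean expression at or above the median 181 and 261. At an adjusted p below 0.1 there were 4 higher genes, and below 0.2 there were 78 higher and 132 lower. With gaps of at most 1 Mb, 3 runs of higher genes were found, with protein-coding genes only 2, and with at least 5 genes per run 16 runs of lower genes. The median span of higher genes was 57.5 kb at the stricter fold and 53.3 kb at the stricter p, above the 32.3 kb and 31.8 kb of lower genes, so the order turned. Shares of higher genes were varied for some of the lists, for gene classes and for chromosomes 8, 15, 19 and X. The erythroid, myeloid, antigen processing, immediate early and matrix lists were among those not varied. Where varied, 69 alternatives moved the share by at most 10 percentage points and 18 by more, and none of these 87 turned a majority into its opposite. At a p below 0.01, however, ion channel and homeobox genes lost their lower majority (each 50% higher), and the even split of cancer-testis genes became 33.3% higher. Counting zinc finger genes within 1 Mb as 1 locus gave 59.1% higher. The depth per library, unknown here, limits what low genes can show.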
